A study of Homo sapiens with 12 samples.

Results

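Circular RNAs (circRNAs) from genes that regulate chromatin were followed in 2 human glioblastoma cell lines, LN229 and T98G, in normoxia and hypoxia. The members were chosen by host gene: a circRNA belonged if the deposited table gave 1 of 51 listed genes as its host, namely writers and erasers of histone and DNA marks, remodellers, coactivators and readers. These hosts had 258 of the 12538 loops in the table. At least 1 read was found for 204 of them, from 48 hosts, while EPC1, DNMT1 and SETDB1 had listed loops but no read. Over the 12 libraries the members gave 1598 of 71526 junction reads, or 2.23%. The rule itself reads only the host's name, but the list of hosts was drawn up with earlier results of these data known.

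A circRNA forms when the spliceosome joins the end of an exon back to the start of the same or an earlier exon, which leaves a closed loop, and a read across that back-splice junction identifies it. Chromatin regulators add, remove or read chemical marks on histones and DNA, or move and evict nucleosomes, and mutations in several of them are known in brain tumours. The TET enzymes and the Jumonji histone demethylases use molecular oxygen as a substrate, which links part of the group to oxygen supply. A junction read says that a loop of the host was present; it does not measure the host's linear mRNA or protein.

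The study profiled circRNAs in both lines under both oxygen conditions, with 3 libraries in each of 4 groups. For normoxia either line was kept at 95% air with 5% CO2, for hypoxia at 1% O2 with 5% CO2. All groups shared the same medium and serum, and each line is 1 established culture, so a difference between lines is a difference between these 2 cultures. The sources used here give neither the duration of hypoxia nor whether replicate libraries were grown separately. The p-values therefore measure the spread between these libraries, which may be technical.

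Library totals ran from 4298 to 7608 junction reads, so 1 read was worth 146 to 203 CPM (reads scaled to a common library size) after scaling, and a count of 0 in a library allowed a share of up to 0.0394% to 0.0698%. Intervals and such limits cover counting error only. The table gave no check of cell identity: of 8 glial and glioma markers EGFR alone was listed, with 0 reads, and immune, endothelial and epithelial markers were at 0 too. Normoxia replicate 3 of each line and LN229 hypoxia replicate 3 stood apart. Across the 244 tested loops, LN229 normoxia replicate 3 correlated at r = 0.071 to 0.081 with its replicates 1 and 2, but at 0.246 to 0.765 with hypoxic LN229 and at 0.73 to 0.79 with hypoxic T98G. T98G normoxia replicate 3 correlated at 0.39 to 0.42 with its replicates and at 0.61 to 0.63 with hypoxic T98G. LN229 hypoxia replicate 3 correlated at 0.323 and 0.684 with hypoxia replicates 1 and 2 of its line, at 0.439 and 0.482 with LN229 normoxia replicates 2 and 1, and at 0.253 to 0.278 with hypoxic T98G. These correlations are across loops of libraries, and loops are not independent replicates. These 3 libraries stayed in their labelled groups. For some results, but not for all, values from fits without some of them are also given. Read numbers are given for replicates 1, 2 and 3 in turn, and where they are set against each other within a line, normoxia comes before hypoxia.

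The junctions of 7 tested loops, each the most abundant of its host, are shown so that each loop can be recognised by its sequence. Lower case letters are the last 20 bases of the last exon in the loop and capitals the first 20 bases of the first exon, so the back-splice lies at the change of case. The sequences come from GENCODE 29 transcripts (GRCh38), whose exon pair was found by host, genomic span and spliced length, while the loop positions below them are those of the table (hg19).
UHRF2: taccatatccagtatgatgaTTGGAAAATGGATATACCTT
ASXL1: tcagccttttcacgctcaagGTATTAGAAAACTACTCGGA
SFMBT2: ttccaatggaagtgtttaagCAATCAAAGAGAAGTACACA
BPTF: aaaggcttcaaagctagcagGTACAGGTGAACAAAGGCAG
ARID1A: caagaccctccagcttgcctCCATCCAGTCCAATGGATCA
KMT2C: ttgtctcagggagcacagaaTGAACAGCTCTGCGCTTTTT
CDYL: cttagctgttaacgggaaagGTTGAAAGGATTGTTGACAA

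The UHRF2 loop lies at chr9:6420912-6434173 on the plus strand and joins exon 3 back to exon 2. The ASXL1 loop lies at chr20:30954187-30956926, plus strand, and holds exons 2 to 4 in only 195 bases. SFMBT2 (chr10:7318854-7327916, minus strand) holds exons 5 to 7, and KMT2C (chr7:152007051-152012423, minus strand) exons 4 to 6. BPTF (chr17:65941525-65972074, plus strand) holds exons 23 to 29, and ARID1A (chr1:27056142-27059283, plus strand) exons 2 to 4. CDYL (chr6:4891947-4892613, plus strand) is exon 2 closed on itself, 667 bases long. All of these 7 loops consist of coding exons and were already listed in circBase, a catalogue of circRNAs.

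Reads were unevenly spread over the hosts. ASXL1, a Polycomb-associated protein, gave 249 reads, BPTF, the largest subunit of the NURF remodeller, 161, the histone H3 lysine 4 methyltransferase gene KMT2C 130, ARID1A, a DNA-binding subunit of BAF (SWI/SNF) complexes, 108, and the Polycomb group gene SFMBT2 68. These 5 hosts held 716 of the 1598 member reads, or 44.8%. A member host with reads had a median of 20 reads over all libraries, against 6 for all named hosts with a read. It had a median of 3 loops with reads, against 1 for other hosts with reads. At the low end, 16 of the 51 hosts had fewer than 10 reads, and the 3 hosts at 0 are limited to a share of at most 0.00419% each.

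**Figure D1:**
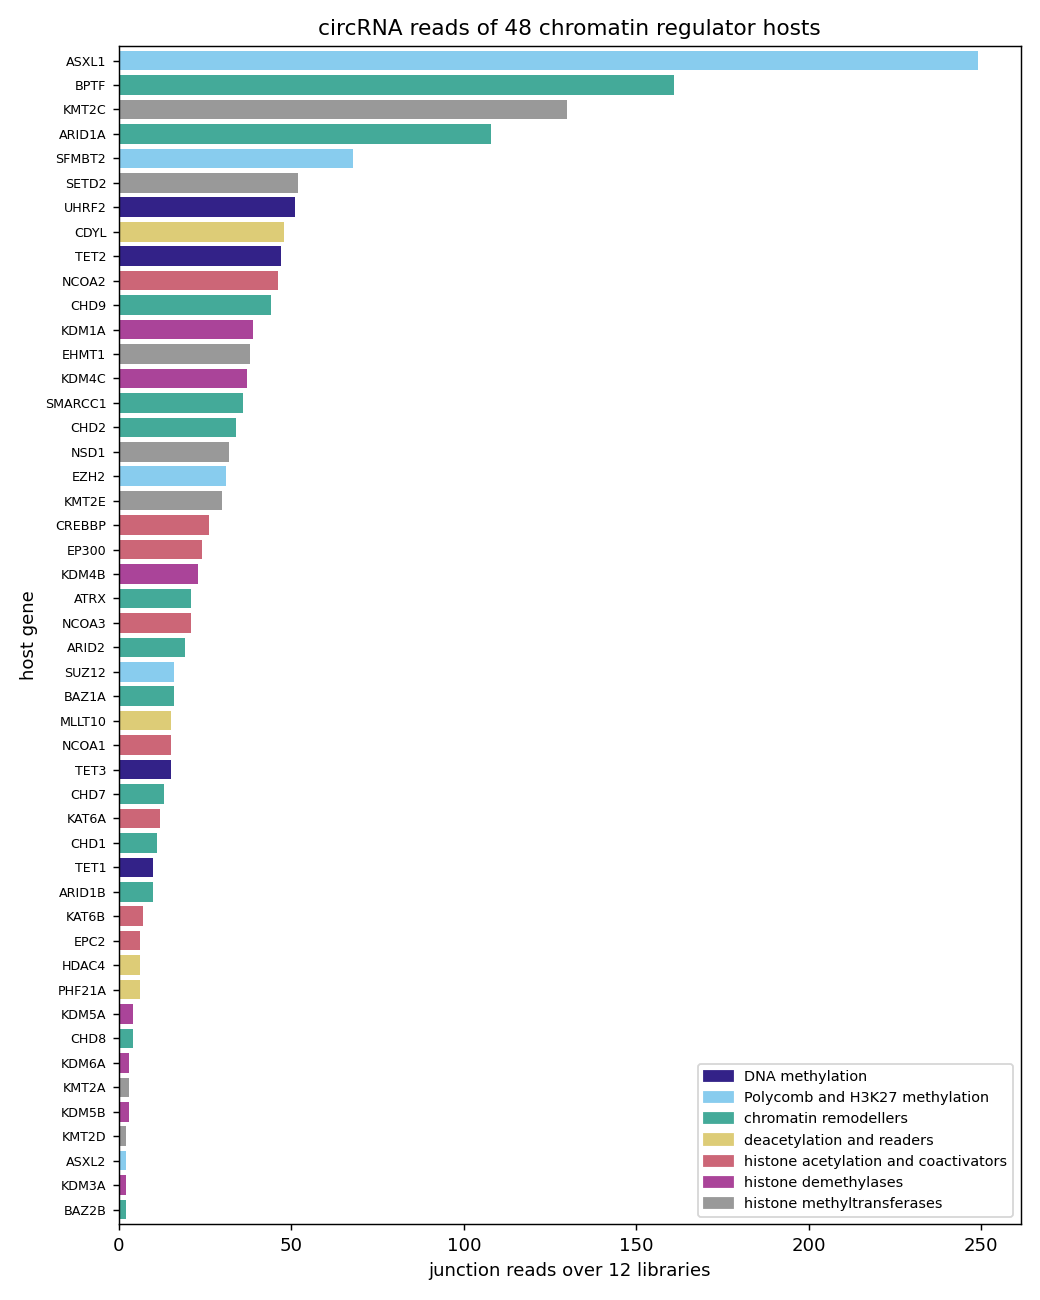
Bars give the junction reads of each of the 48 hosts with a read, summed over its loops and the 12 libraries, and colours mark the role of the host. ASXL1 leads with 249 reads, 5 hosts hold 716 of 1598 reads, and the bars fall to 2 reads at the bottom.

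By role, chromatin remodellers gave 479 reads from 13 hosts, Polycomb and H3K27 methylation genes 366 from 5, and histone methyltransferases 287 from 7. Histone acetylation and coactivator genes gave 157 reads, DNA methylation genes 123, histone demethylases 111, and deacetylation and reader genes 75. The Polycomb total is largely 1 gene, since ASXL1 made up 249 of its 366 reads.

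In structure the loops were mostly exonic: the table classed 181 of 204 (88.7%) as exonic, against 81.6% of other loops with reads, 11 as sense overlapping, 11 as intronic and 1 as antisense. Exonic members had a median length of 713 nt (quartiles 426 and 1176), against 554 nt (356 and 927) for other exonic loops, and ranged from 195 to 7368 nt. In circBase 78.9% of members were listed, against 76.3% of the rest. An exon pair was found for 179 of the 181 exonic members. These loops held a median of 4 exons, as did loops of other hosts, with a range of 1 to 27.

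Loops starting at exon 2 made up 19.6% of the matched members but carried 40.3% of their reads, and for other hosts the figures were 32.7% of loops and 37.2% of reads. None of the matched members started at exon 1. The start codon lay in 7.82% of member loops against 15.3% of others, and 89.9% against 81.1% were made of coding exons alone. These shares are descriptions, because loops of 1 host share exons and were not treated as independent.

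Many loops of a host shared an end. The 181 exonic loops used 127 acceptor sites, of which 37 opened several loops, and 153 donor sites, of which 24 closed several. All 4 exonic SFMBT2 loops began at exon 5 and closed at exons 7, 8, 9 or 11. The 4 TET3 loops with reads all began at exon 3, and 3 BPTF loops began at exon 23. In KMT2C, which had 18 loops with reads, 4 began at exon 15 and 3 others closed at exon 6.

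The share of junction reads that came from the members was 2.63% ± 0.532 in normoxic LN229, 2.00% ± 0.298 in hypoxic LN229, 2.51% ± 0.0432 in normoxic T98G and 1.96% ± 0.0651 in hypoxic T98G (SD, n = 3). In LN229 normoxia the libraries stood at 2.93%, 2.93% and 2.01%, and in hypoxia at 1.66%, 2.22% and 2.11%, so the groups overlapped. In T98G they stood at 2.54%, 2.54% and 2.46% against 1.93%, 2.04% and 1.92%, with no overlap. A single circRNA host, the vitamin D hydroxylase gene CYP24A1, had more reads in hypoxic T98G, where these shares were lower. It had 0, 1 and 679 reads in normoxic T98G and 1336, 1006 and 1376 in hypoxia. With its reads left out of the total, the T98G shares became 2.54%, 2.54% and 2.78% against 2.40%, 2.49% and 2.44%, still without overlap but much closer. In LN229, where CYP24A1 had 2, 2 and 1880 reads in normoxia and 1499, 387 and 1 in hypoxia, they became 2.93%, 2.93% and 2.67% against 2.14%, 2.35% and 2.11%, and no longer overlapped. Replicate 3 of LN229 normoxia was the library that this changed most.

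**Figure D2:**
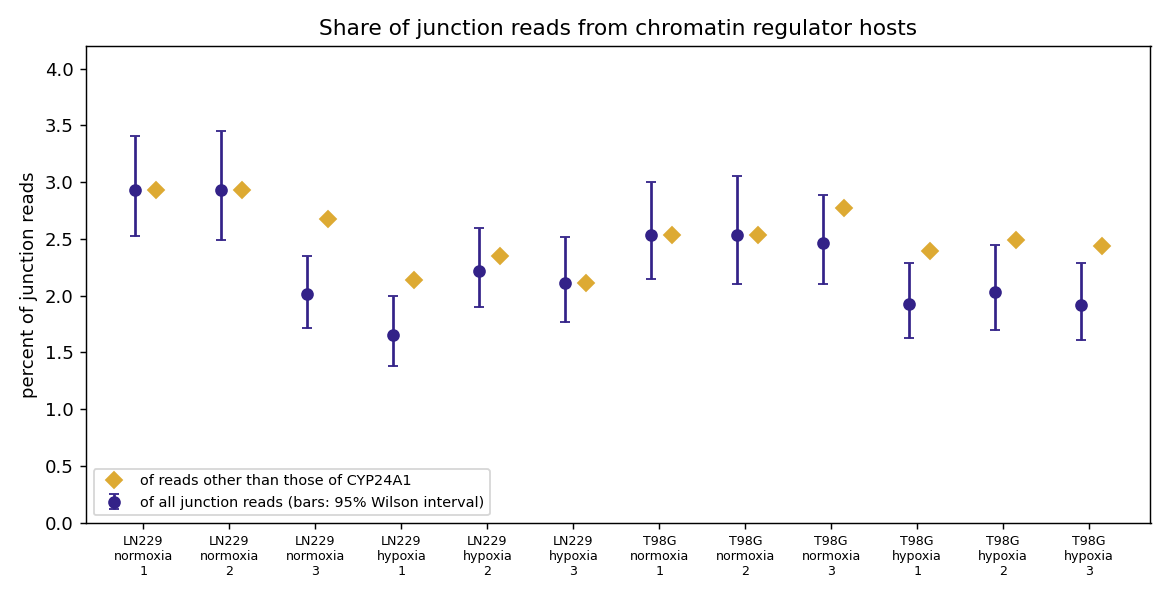
Circles give the percent of junction reads from chromatin regulator hosts in each of the 12 libraries, with 95% Wilson intervals for counting error, and diamonds the percent after CYP24A1 reads are left out of the total. In LN229 normoxia replicate 3 the circle is at 2.01% and the diamond at 2.67%.

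Testing required 5 or more reads in 3 or more libraries, which 10 of the 258 members met (244 loops in all), with 720 of the 1598 member reads. Summed by host, 13 of 51 passed (416 hosts in all). A low-count member passes more easily if 1 condition is high. The UHRF2 loop reached 5 reads in 3 libraries, all of them normoxic, and the TET2 loop and host in 3, all of them hypoxic. The SFMBT2 loop reached 5 reads in 3 libraries, 1 each of normoxic LN229, hypoxic LN229 and hypoxic T98G. The UHRF2 host reached 5 reads in 5 libraries, all normoxic like those of its loop. The NCOA2 loop and host did so in 4 libraries, 3 of normoxic LN229 and 1 of hypoxic T98G. The SETD2 host reached 5 reads in 4 libraries and the EHMT1 host in 3, all of LN229. The counts over tested members are therefore descriptions and not a statement on the list.

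Averaged over both lines, UHRF2 was the 1 of the 10 tested loops that passed, and it fell in hypoxia (edgeR quasi-likelihood test, Benjamini-Hochberg adjusted p under 0.05). It met the filter through normoxia libraries alone, so this fall is not independent of the filter. Over all 244 loops 10 passed, or 4.1%, all of them lower. The ASXL1 and SFMBT2 loops had an unadjusted p under 0.05 without passing, so that 3 of the 10 members did, against 19.3% of all loops. The median log2 fold change was -0.17 over the members and 0.04 over all loops, with 7 of 10 members lower and 3 higher (48.8% of all loops were lower). In both lines the UHRF2 libraries were lower in hypoxia without overlap, as were those of 1.23% of all loops.

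In LN229, 0 of the 10 loops passed, as 0 of 244 did (0%), by edgeR and by DESeq2. The UHRF2 and NCOA2 loops had an unadjusted p under 0.05 (edgeR), both lower, against 8.2% of all loops. These same 2 were the members whose hypoxia and normoxia libraries did not overlap, against 9.84% of all loops. In T98G, 0 of the 10 passed by edgeR or DESeq2, against 0.41% of all loops, and 3 (ASXL1, SFMBT2 and UHRF2) had an unadjusted p under 0.05, against 20.9%. There 4 members did not overlap between conditions after scaling, ASXL1, KMT2C and UHRF2 being lower and SFMBT2 higher in hypoxia. Before scaling, the lowest normoxia and highest hypoxia library of the KMT2C loop both had 6 reads. Over all loops 36.9% did not overlap. With 10 members, 1 loop more or fewer moves such a share by 10 percentage points.

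Summed by host, 0 of the 13 passed in LN229 (background 0%), 0 in T98G (0%) and 0 averaged over both lines (3.85%), by edgeR and by DESeq2. With an unadjusted p under 0.05 (edgeR) stood 2 in LN229 (8.89% of all hosts), 4 in T98G (19%) and 3 on average (19%). Hypoxia and normoxia libraries did not overlap for 2 member hosts in LN229 (9.86%) and for 5 in T98G (33.4%). UHRF2 was the member host that was lower without overlap in both lines after scaling (1.44% of all hosts were). Before scaling, its lowest normoxia and highest hypoxia sums in T98G were both 4 reads. The median log2 fold change averaged over lines was -0.18 over the member hosts and -0.02 over all.

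**Figure D3:**
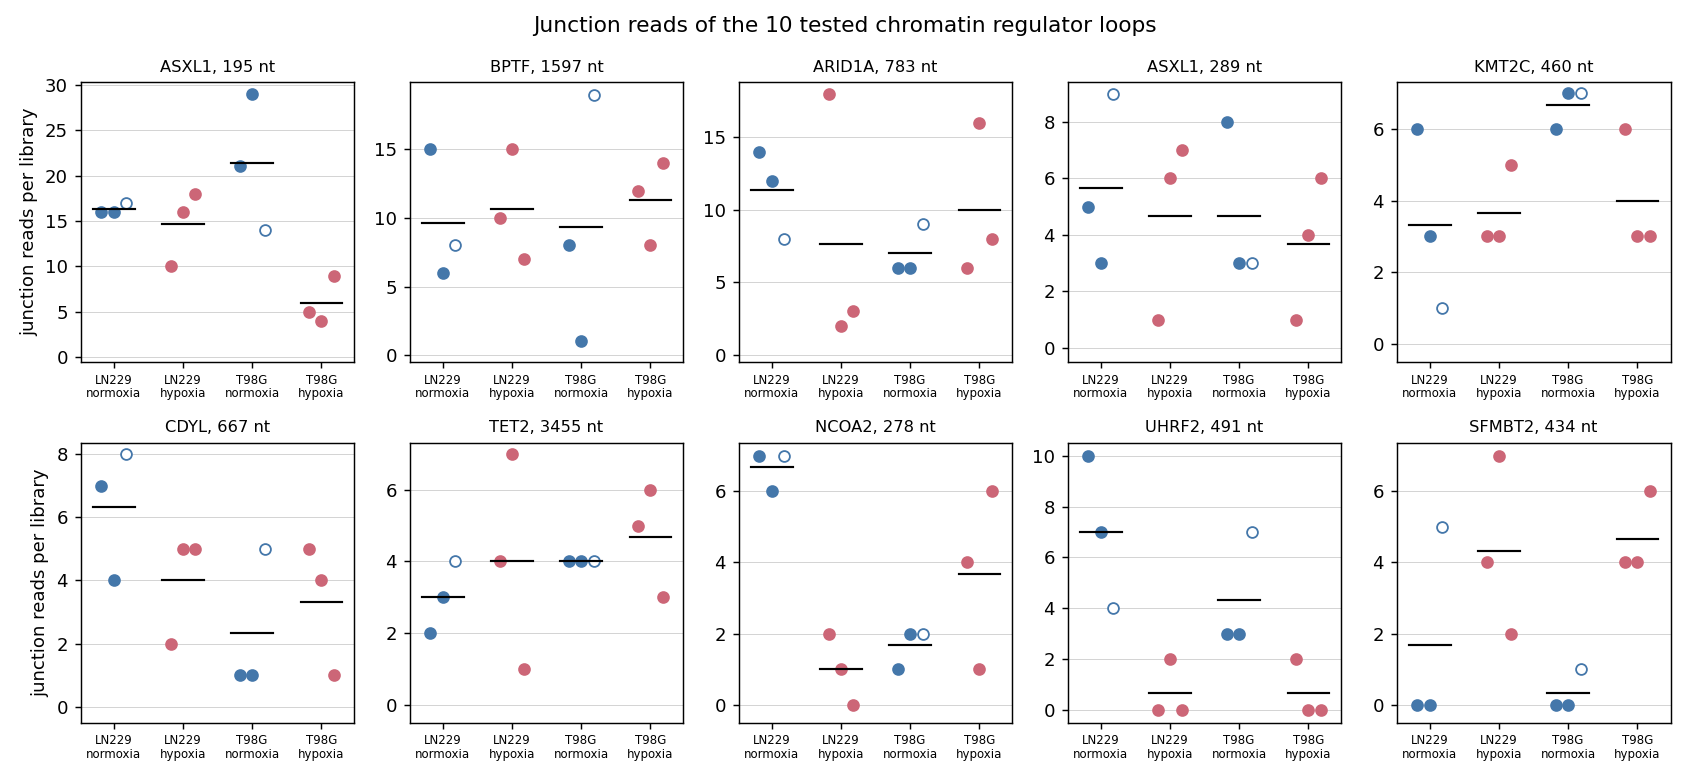
Each panel plots the junction reads of 1 tested loop, titled by host and length, in the 12 libraries, with blue circles for normoxia, red for hypoxia, open circles for normoxia replicate 3 and a line at the group mean. The UHRF2 circles lie at 3 to 10 reads in normoxia and at 0 to 2 in hypoxia, and the open SFMBT2 circles lie above the other normoxia libraries, which are at 0.

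Among the genes of DNA methylation, UHRF2, a ubiquitin ligase that binds methylated and hydroxymethylated DNA, had 10, 7 and 4 reads of its 491-nt loop in normoxic LN229 and 0, 2 and 0 in hypoxia. In T98G the reads were 3, 3 and 7 against 2, 0 and 0. In bulk RNA, fewer copies per cell and fewer cells with the loop cannot be told apart. Every hypoxia library was below every normoxia library of its line, by a single read in T98G. The filter for testing was met through normoxia libraries alone. The log2 fold change was -2.85 averaged over lines (SE 0.78; adjusted p = 0.0444, edgeR quasi-likelihood with Benjamini-Hochberg), with -3.24 (SE 1.07) for LN229 and -2.45 (SE 1.13) for T98G, where it did not pass alone. The call was lost without any 1 of LN229 normoxia replicates 1 and 2, LN229 hypoxia replicates 1 and 3, T98G normoxia replicates 1, 2 and 3, and T98G hypoxia replicates 2 and 3. It was also lost with the replicate number as a block (adjusted p = 0.0505), with RLE size factors (0.0508) and with CYP24A1 left out (0.0529, all edgeR quasi-likelihood). The adjusted p ran from 0.00352 to 0.130 over all alternatives tried (edgeR quasi-likelihood, DESeq2 or limma), while the log2 fold change stayed between -4.21 and -2.52. It was -2.81 without normoxia replicate 3 of both lines, where the loop passed.

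UHRF2 had 4 further loops with reads, each with at most 5. The 710-nt loop, which begins at the same exon 2 and closes at exon 4, had 1 read in normoxic LN229 and 3 in normoxic T98G, against 1 in hypoxic LN229. The 529-nt loop of exons 5 to 8 had 1 read in normoxia and 3 in hypoxia, all in LN229. The reads summed over all UHRF2 loops were 11, 7 and 5 against 0, 3 and 3 in LN229, and 5, 4 and 9 against 4, 0 and 0 in T98G. For this sum the log2 fold change averaged over lines was -2.00 (SE 0.63), and it did not pass (edgeR quasi-likelihood, Benjamini-Hochberg adjusted p = 0.0841).

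TET2, which oxidises methylated cytosine, was measured through a single 3455-nt loop made of exon 3 alone, which holds the start codon. It had 2, 3 and 4 reads in normoxic LN229 and 4, 7 and 1 in hypoxia, and 4, 4 and 4 in normoxic T98G and 5, 6 and 3 in hypoxia. The groups overlapped in both lines, and the log2 fold changes were 0.33 (SE 0.71) and 0.26 (SE 0.68). TET2 met the filter through hypoxia libraries alone, so these values are not independent of the filter. TET3, its paralog, had too few reads for a test. Its 4 loops together gave 0, 0 and 2 reads in normoxic LN229 and 0, 1 and 1 in hypoxia, but 0 in all 3 T98G normoxia libraries and 4, 3 and 4 in hypoxic T98G. Against a floor of 3 counts over the group, this was at least 3.02-fold higher in hypoxic T98G, a pattern singled out after the values were seen. TET1 had 10 reads and DNMT1, the maintenance DNA methyltransferase, 0.

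Of the Polycomb genes, ASXL1 encodes a scaffold of the deubiquitinase that removes ubiquitin from histone H2A. Its 195-nt loop had 16, 16 and 17 reads in normoxic LN229 and 10, 16 and 18 in hypoxia, with overlapping groups. In T98G it had 21, 29 and 14 reads in normoxia and 5, 4 and 9 in hypoxia, without overlap, or 3890.1 ± 1895 against 1069 ± 445 CPM (SD, n = 3). The log2 fold change was -0.20 (SE 0.44) for LN229 and -1.82 (SE 0.47) for T98G, where it did not pass (edgeR quasi-likelihood, Benjamini-Hochberg adjusted p = 0.066). It passed in T98G without LN229 normoxia replicate 3 (adjusted p = 0.0074), LN229 hypoxia replicate 1 (0.0457) or T98G normoxia replicate 3 (0.0155), in a fit to the T98G libraries alone (0.0172) and with the replicate block (0.041, all edgeR quasi-likelihood). The difference between the lines' responses was -1.62 (SE 0.65) and did not pass either (edgeR quasi-likelihood, Benjamini-Hochberg adjusted p = 0.568).

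The second ASXL1 loop begins at the same acceptor of exon 2 and closes at a downstream exon of another annotated transcript, in 289 nt. It had 5, 3 and 9 reads in normoxic LN229 against 1, 6 and 7, and 8, 3 and 3 in normoxic T98G against 1, 4 and 6. Its groups overlapped in both lines, with log2 fold changes of -0.30 (SE 0.72) and -0.29 (SE 0.76). Whether the 2 loops differ in their response was not tested. Over all ASXL1 loops the reads were 22, 23 and 27 against 11, 24 and 25 in LN229, and 29, 36 and 20 against 6, 11 and 15 in T98G, a log2 fold change of -1.41 (SE 0.45) for T98G.

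SFMBT2, a Polycomb group protein with malignant brain tumour (MBT) repeats that bind methylated histones, showed a different arrangement. Its 434-nt loop had 0, 0 and 5 reads in normoxic LN229 and 4, 7 and 2 in hypoxia, and 0, 0 and 1 in normoxic T98G and 4, 4 and 6 in hypoxia. Over all its loops SFMBT2 had 0, 0 and 14 reads in normoxic LN229, 5, 10 and 7 in hypoxia, 0, 0 and 5 in normoxic T98G and 11, 6 and 10 in hypoxia. It was thus at 0 in normoxia replicates 1 and 2 of both lines and at 5 to 14 reads in the other 8 libraries. The 684-nt loop, too rare for a test, had 0, 0 and 6 reads against 1, 0 and 3 in LN229, and 0, 0 and 3 against 4, 1 and 4 in T98G.

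The log2 fold change of the 434-nt SFMBT2 loop was 1.29 (SE 1.08) for LN229, 3.46 (SE 1.34) for T98G and 2.37 (SE 0.86) on average, and it did not pass (edgeR quasi-likelihood, Benjamini-Hochberg adjusted p = 0.142 on average and 0.145 in T98G). Without LN229 normoxia replicate 3 the average was 4.24 (adjusted p = 0.00664), and without normoxia replicate 3 of both lines 5.17 (adjusted p = 0.00317, both edgeR quasi-likelihood). In a fit to the T98G libraries alone, the loop passed in T98G (log2 fold change 3.51, edgeR quasi-likelihood adjusted p = 0.0343). CYP24A1, whose reads are given above, was also at 0 to 2 reads in normoxia replicates 1 and 2 of both lines, and at 679 or more in the replicate 3 libraries, but had 1 read in LN229 hypoxia replicate 3, where SFMBT2 had 7. The part that the differences between replicates had in the SFMBT2 result was not tested.

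EZH2 and SUZ12, the catalytic subunit and a core partner of the complex that methylates histone H3 lysine 27, were below the filter. EZH2 had 4, 6 and 3 reads in normoxic LN229 and 1, 1 and 1 in hypoxia, while T98G had 1, 6 and 2, then 2, 2 and 2. SUZ12 had 4, 1 and 1 reads in normoxic LN229 and 0 in all 3 hypoxia libraries, at least 2.12-fold lower against a floor of 3 counts over the group. In T98G it had 1, 0 and 1 reads in normoxia and 1, 5 and 2 in hypoxia. Neither gene was tested, and both were given by library after their values were seen. ASXL2 had 2 reads.

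**Figure D4:**
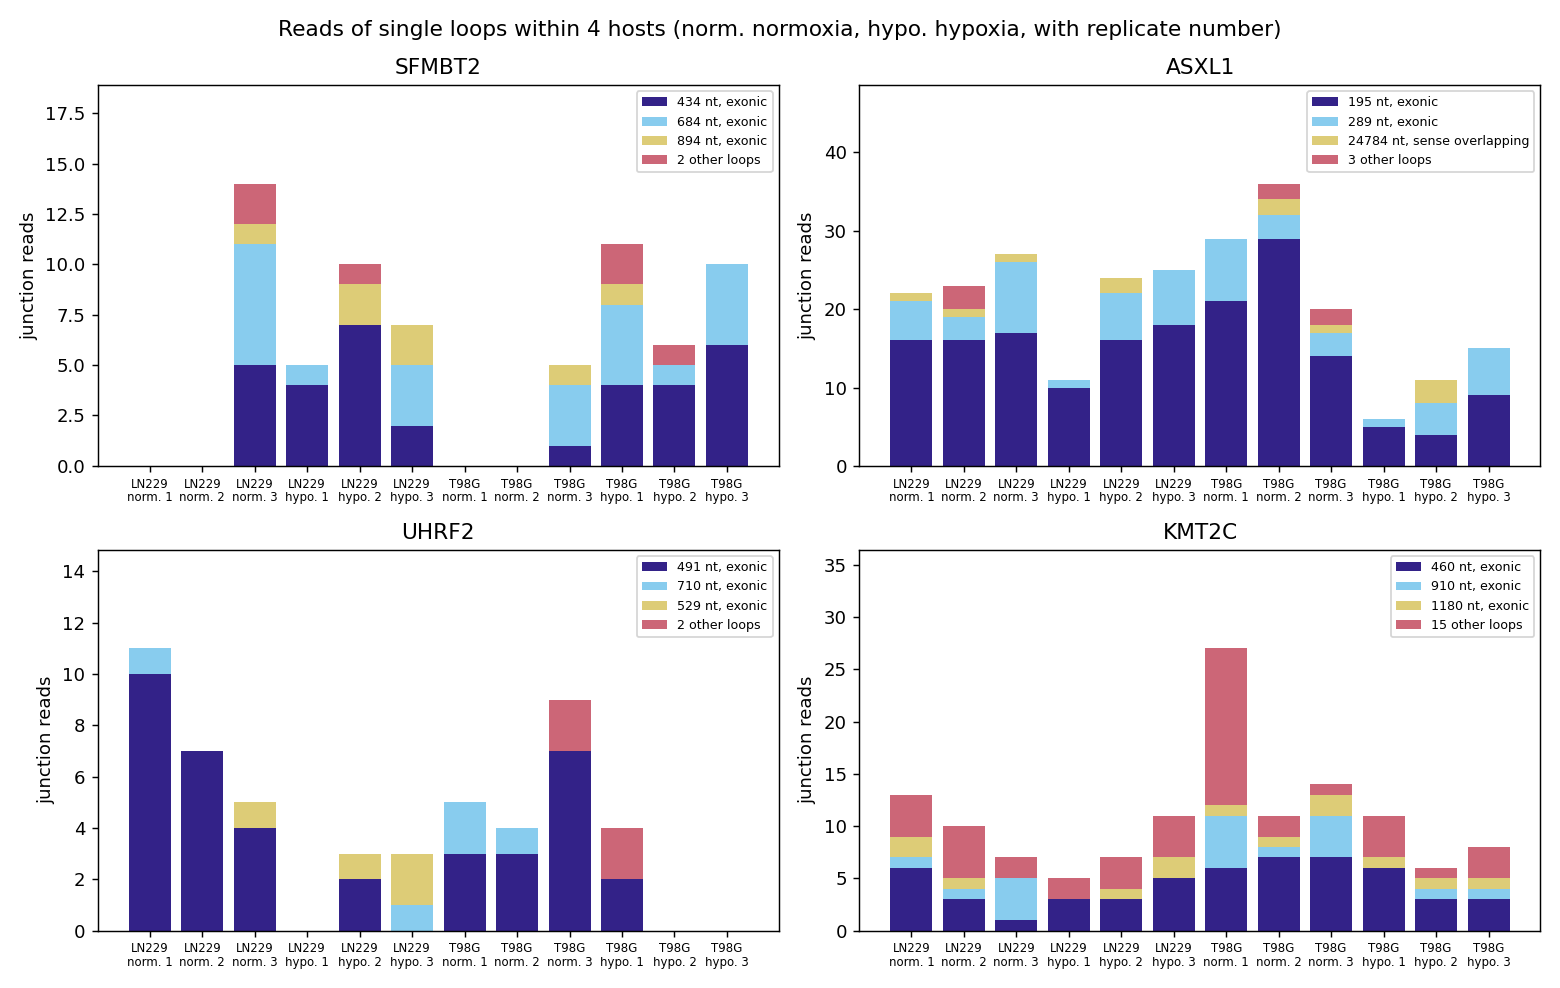
Stacked bars give the junction reads in each of the 12 libraries for the 3 leading loops and the remaining loops of SFMBT2, ASXL1, UHRF2 and KMT2C, with colours for loops named by length and class. The SFMBT2 panel is empty in normoxia replicates 1 and 2 of both lines, and the ASXL1 bars reach 36 reads in T98G normoxia replicate 2 and 6 in T98G hypoxia replicate 1.

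Among the histone methyltransferases, KMT2C, which methylates histone H3 lysine 4 at enhancers, had the most loops of any member. Its 460-nt loop had 6, 3 and 1 reads in normoxic LN229 and 3, 3 and 5 in hypoxia, and 6, 7 and 7 in normoxic T98G and 6, 3 and 3 in hypoxia. Summed over its loops, KMT2C had 13, 10 and 7 against 5, 7 and 11 in LN229, and 27, 11 and 14 against 11, 6 and 8 in T98G. After scaling, the T98G groups did not overlap, with a log2 fold change of -1.04 (SE 0.47) for the sum that did not pass (edgeR quasi-likelihood, Benjamini-Hochberg adjusted p = 0.237). Some KMT2C exons have near-identical copies elsewhere in the genome, so its reads are uncertain.

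SETD2, which trimethylates histone H3 lysine 36, had 3, 10 and 4 reads in normoxic LN229 and 6, 9 and 7 in hypoxia, but 4, 1 and 3 and then 4, 0 and 1 in T98G. The T98G libraries were at 0 to 4 reads and the LN229 libraries at 3 to 10. Averaged over conditions the log2 fold change of T98G against LN229 was -1.43 (SE 0.57), which did not pass (edgeR quasi-likelihood, Benjamini-Hochberg adjusted p = 0.779). The SETD2 host met the filter through LN229 libraries alone, so this difference is not independent of the filter. EHMT1, a histone H3 lysine 9 methyltransferase, had 1, 5 and 3 reads against 1, 9 and 8 in LN229 and 2, 1 and 4 against 0, 3 and 1 in T98G, with overlap in both lines. Its reads were spread over several loops with at most 6 reads each. NSD1 and KMT2E, both SET domain genes, had 32 and 30 reads, KMT2A 3 and KMT2D 2.

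The remodellers had the most reads, and 0 of the 3 tested hosts passed in any comparison. For BPTF, the 1597-nt loop had 15, 6 and 8 reads in normoxic LN229 and 10, 15 and 7 in hypoxia, and 8, 1 and 19 in normoxic T98G and 12, 8 and 14 in hypoxia. Normoxia alone spanned 1 to 19 reads in T98G, wider than any gap between the groups, and the log2 fold changes were 0.08 (SE 0.58) for LN229 and 0.38 (SE 0.58) for T98G. The 783-nt ARID1A loop, its sole loop with reads, had 14, 12 and 8 reads against 18, 2 and 3 in LN229 and 6, 6 and 9 against 6, 16 and 8 in T98G. Its log2 fold changes were -0.60 (SE 0.64) for LN229 and 0.58 (SE 0.66) for T98G. In hypoxic LN229, replicate 1 alone, with 18 reads, lay above all normoxia libraries, while the other two lay below them.

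CHD9, a chromodomain helicase, had 2, 4 and 5 reads against 2, 5 and 6 in LN229 and 5, 2 and 5 against 2, 2 and 4 in T98G, with overlap in both lines. CHD2, its relative, had 34 reads, 8 of them in LN229 normoxia replicate 1 and 11 in LN229 hypoxia replicate 2. SMARCC1, a core BAF subunit, had 36 reads over many loops, none above 6. CHD7 had 4, 3 and 0 reads in normoxic and 2, 2 and 0 in hypoxic LN229, but 0 in normoxic T98G and 2, 0 and 0 in hypoxic T98G. ATRX, the histone chaperone partner often mutated in glioma, had 21 reads. Of the other remodellers, ARID2 had 19 reads, BAZ1A 16, CHD1 11, ARID1B 10, CHD8 4 and BAZ2B 2, all below the filter.

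Of the acetyltransferases and coactivators, NCOA2, a nuclear receptor coactivator, had the largest difference between the lines' responses among the tested member loops. NCOA2 met the filter only through normoxic LN229 and hypoxic T98G, so the size of this difference is not independent of the filter. Its 278-nt loop of exons 3 and 4, which holds the start codon, had 7, 6 and 7 reads in normoxic LN229 and 2, 1 and 0 in hypoxia. The T98G libraries had 1, 2 and 2 reads in normoxia and 4, 1 and 6 in hypoxia. LN229 normoxia was far above LN229 hypoxia without overlap, whereas in T98G the hypoxia libraries reached higher but overlapped with normoxia. The log2 fold change was -2.64 (SE 0.90) for LN229 and 1.10 (SE 0.89) for T98G, and their difference of 3.74 (SE 1.27) did not pass (edgeR quasi-likelihood, Benjamini-Hochberg adjusted p = 0.401).

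A second NCOA2 loop of 292 nt had 7 reads, and with it the host sums were 7, 6 and 7 against 2, 2 and 1 in LN229, and 2, 2 and 2 against 4, 3 and 8 in T98G. The sums did not overlap in either line, and the log2 fold changes, -1.96 (SE 0.68) and 1.28 (SE 0.68), had opposite signs without passing. Of all hosts, 9.86% did not overlap in LN229 and 33.4% in T98G. The share that did so in opposite directions is not given here. CREBBP and EP300, the paired acetyltransferases of enhancers, had 26 and 24 reads. NCOA3 had 21, NCOA1 15, KAT6A 12, KAT6B 7 and EPC2 6, all below the filter.

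For the difference between the lines' responses, 0 of the 10 loops and 0 of the 13 hosts passed by edgeR or DESeq2, as 0% of all loops and 0% of all hosts did. An unadjusted p under 0.05 (edgeR) was found for the 195-nt ASXL1 loop and the NCOA2 loop (7.79% of all loops) and for the NCOA2 host (7.21% of all hosts). Between the lines, averaged over oxygen conditions, 0 members passed at either level by edgeR or DESeq2 (0% of all loops and hosts). An unadjusted p under 0.05 (edgeR) was found for 0 loops (2.87% of all) and for the SETD2 host (5.53% of all). SETD2 met the filter through LN229 libraries alone, so this value is not independent of the filter.

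**Figure D5:**
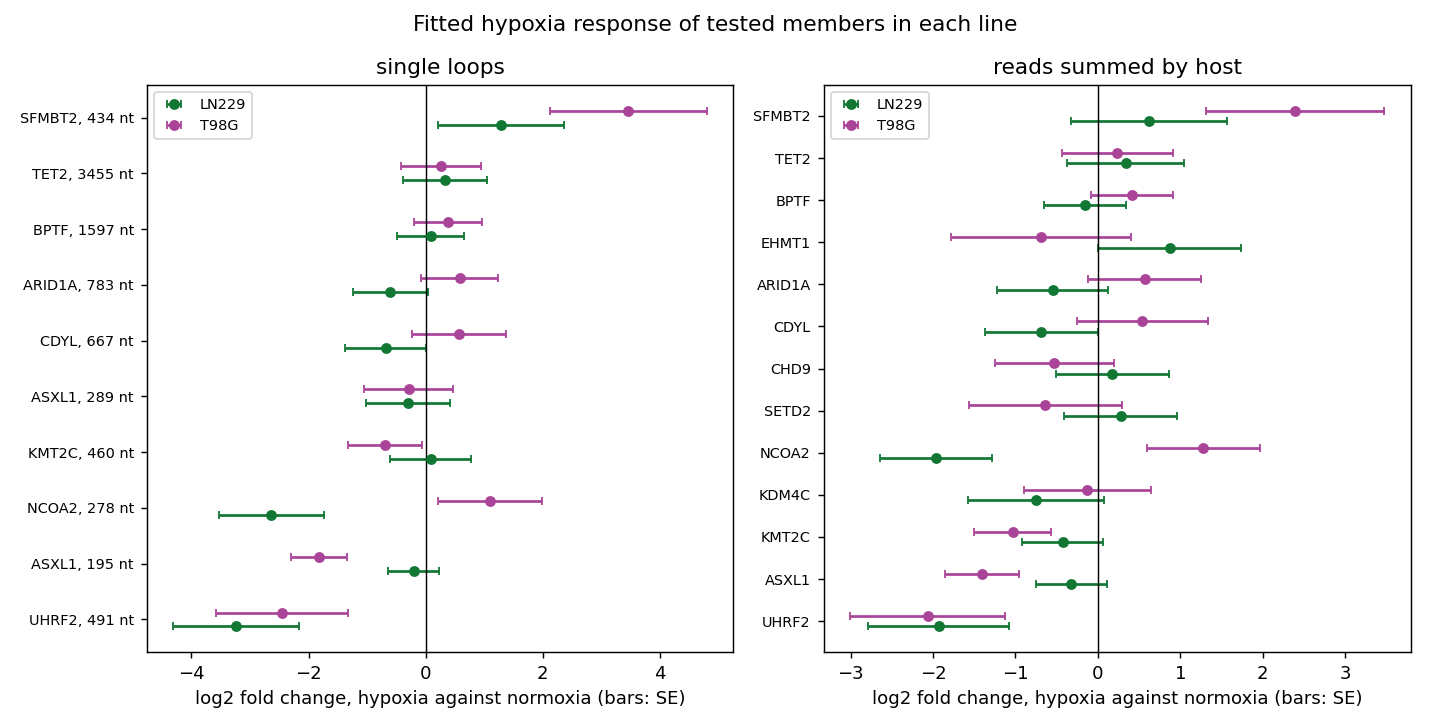
Points give the fitted log2 fold change of hypoxia against normoxia with its SE in LN229 (green) and T98G (purple), for the 10 tested loops on the left and the 13 tested hosts on the right, ordered by the average over lines. UHRF2 is below 0 in both lines, NCOA2 is below 0 in LN229 and above 0 in T98G, and SFMBT2 stands highest.

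Of the readers and deacetylation genes, CDYL, a chromodomain corepressor, was tested. Its single-exon loop had 7, 4 and 8 reads in normoxic LN229 and 2, 5 and 5 in hypoxia, and 1, 1 and 5 in normoxic T98G and 5, 4 and 1 in hypoxia. The groups overlapped, and the log2 fold changes were -0.68 (SE 0.69) and 0.57 (SE 0.80). MLLT10, which reads unmodified histone H3, had 15 reads, and HDAC4 and PHF21A 6 each.

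The demethylases gave 111 reads from 7 hosts. KDM1A, the flavin-dependent demethylase of histone H3 lysine 4, had 2 to 7 reads in every library, namely 3, 3 and 5 reads against 3, 2 and 3 in LN229 and 3, 2 and 7 against 2, 3 and 3 in T98G. Its 300-nt loop had 29 reads, the most of any member below the filter. KDM4C, a Jumonji demethylase of histone H3 lysine 9, had 5, 3 and 2 reads against 2, 3 and 1 in LN229 and 2, 6 and 3 against 2, 5 and 3 in T98G, with overlap and log2 fold changes of -0.75 (SE 0.83) and -0.13 (SE 0.77). KDM4B had 23 reads, KDM5A 4, KDM5B 3, KDM6A 3 and KDM3A 2.

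For comparison, a wider list of 240 other chromatin genes had 129 hosts in the table and 112 with reads, 1641 reads in all. Of these, 11 hosts and 2 loops were tested, and 0 passed in any comparison by edgeR. Its most abundant hosts were SETD3 with 119 reads, the H3K36 methyltransferase gene WHSC1 with 113 and the cohesin loader NIPBL with 95. Averaged over lines, the median log2 fold change of these 11 hosts was 0.02, with 6 higher and 5 lower.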

How the data were processed

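The values deposited by the authors are counts of back-splice junction reads, whole numbers per loop and library, and a log2 value beside each. Per the labels' protocols, RNA was isolated with TRIzol and depleted of ribosomal RNA with Ribo-Zero. Per the submitters' processing notes, hg19, BWA and CASAVA 1.8 were used, in roles that are not stated. The sources used here do not give the circRNA caller, its filters, the strand setting or the scaling behind the log2 values. All count columns matched a library title, and 1 line without values was not used.

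Counts were tested in edgeR 4.0.16 (R 4.3.3, limma 3.58.1) by the two-sided quasi-likelihood F test, with TMM scaling of total junction reads, 1 fit over 12 libraries with a mean per group, and Benjamini-Hochberg adjustment over all 244 loops or 416 hosts at a threshold of 0.05. Features needed at least 5 reads in 3 libraries. SE is the log2 fold change divided by the root of F. The common dispersion was 0.261 for loops (a coefficient of variation of 0.511 within groups) and 0.221 for hosts. A sum by host adds the reads of its loops. The steps were tested on simulated data with large changes and no libraries that stood apart, so that test does not cover such libraries. Alternatives were DESeq2 1.42.0, RLE size factors, no filter or at least 10 reads, CYP24A1 left out, only the libraries of a line, limma on the deposited log2 values, a replicate block and leaving out each library. Exons came from GENCODE 29 (GRCh38), matched by span and length without converting coordinates. Shares have 95% Wilson intervals.

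Every tested member is named with its reads, and other members by total reads, with values by library for a few chosen after seeing them. Same-numbered hypoxia and normoxia libraries of a line correlated at -0.545 to 0.0607 in their deviations from the group means. With 3 libraries per group, some of which stood apart, this cannot tell whether replicate numbers pair hypoxia with normoxia. Between the lines, deviations of same-numbered normoxia libraries correlated (r = 0.462, 0.390 and 0.674), and those of hypoxia libraries did not (-0.0705 to 0.0128). Each normoxia mean includes replicate 3, which stood apart in both lines, so these values cannot tell whether numbers link libraries. Without taking deviations, LN229 normoxia replicate 1 correlated at 0.752 and 0.724 with T98G normoxia replicates 1 and 2. LN229 normoxia replicate 2 correlated with them at 0.719 and 0.747. The members and lists were chosen with earlier results of these data known. Results for single genes of the wider chromatin list, other than the reads of its most abundant hosts, are not reported here.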

Additional observations from a re-analysis of the deposited data

Results flagged for a closer look

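Summed over its loops, the hypoxia response of NCOA2, a nuclear receptor coactivator, pointed in opposite directions in the 2 lines. Every LN229 library had fewer reads of it after scaling in hypoxia than in normoxia, and every T98G library more. The log2 fold changes were -1.96 (SE 0.68) and 1.28 (SE 0.68), and the response in T98G minus that in LN229 was 3.24 (SE 0.97). The difference itself was tested and did not pass (edgeR quasi-likelihood, Benjamini-Hochberg adjusted p = 0.376). Over the alternatives it stayed between 2.75 and 3.46, with adjusted p-values of 0.144 to 1.00 (edgeR quasi-likelihood or DESeq2). The NCOA2 reads per library numbered 1 to 8, and its leading loop alone overlapped between conditions in T98G. Of all hosts, 9.86% did not overlap in LN229 and 33.4% in T98G, and the share opposed between lines is not given. NCOA2 met the filter only through normoxic LN229 and hypoxic T98G, so its response is not independent of the filter.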

How the results depend on the processing

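Depth limits every result, with 0 to 36 reads of a member host per library. For the difference of responses and the comparison of lines the count of members passing stayed at 0 under every alternative run. Tracked were log2 fold changes with an unadjusted p under 0.05 in the main fit (edgeR). That choice favours a kept sign, and 0 changed sign. For these values 365 kept their side of the threshold, 30 passed newly and 12 no longer passed. Only the UHRF2 loop on average had passed in the main fit. A kept side therefore mostly means still not passing, and all 12 losses are of that UHRF2 call. In LN229, 0 loops became 1 (UHRF2) and 0 hosts became 1 (SFMBT2) when normoxia replicate 3 of both lines was left out, which was chosen after seeing the data and by its choice favours calls. It gave 2 loops and 2 hosts in T98G (ASXL1 and SFMBT2), and 3 loops (with UHRF2) and 4 hosts (with UHRF2 and KMT2C) on average. Shares over all loops and hosts are not given for this or the other alternatives, so the counts are not results about the members. With only T98G libraries in the fit, 2 loops and 2 hosts passed in T98G. The stricter filter of 10 reads and limma on the deposited log2 values each gave 1 loop there (ASXL1). On average the count of 1 loop became 0 with RLE size factors (UHRF2 adjusted p = 0.0508, edgeR), 0 with CYP24A1 left out (0.0529), 0 with the stricter filter, which UHRF2 did not meet, and 2 with limma (ASXL1 and UHRF2). The cause was not tested.

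Leaving out 1 library at a time gave 0 to 1 loops in LN229, 0 to 1 in T98G and 0 to 3 on average, and 0 to 1, 0 to 2 and 0 to 2 hosts. Shares over all loops and hosts are not given for these counts either. The most calls came without LN229 normoxia replicate 3. A host passed on average without T98G hypoxia replicate 1 (UHRF2, edgeR adjusted p = 0.0306). With the replicate block 1 loop passed in T98G (ASXL1) and 0 on average (UHRF2 adjusted p = 0.0505, edgeR), and the block changed no other call tracked.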
